A study of Mus musculus with 18 samples.

Results

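DNA replication genes were examined in RNA-seq libraries of long-term haematopoietic stem cells (LT-HSC) from mouse bone marrow. The members are the genes of a list of 43, taken as the rows of the deposited table that carry a listed symbol. Of these, 41 genes were found among 44349 genes in the table, and all 41 passed the filter on low values, at least 1 FPKM in at least 3 libraries. FPKM is the number of fragments on a transcript, scaled for its length and for the mapped fragments of the library. Cdt1, a licensing factor, and Gins2, a subunit of the GINS complex, matched no row and were not analysed here.

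The 18 libraries fall into 6 groups of 3. WT libraries came from wild-type mice and KO Ctrl libraries from knockouts of DERARE, a distal enhancer of the Hoxb gene cluster that answers to retinoic acid. Expression values do not check the deletion of such an element. The Wnt5a group is titled only Wnt5a, and its column names in the deposited data mark it as wild type. The KO Wnt5a group is labelled as a Wnt5a knockout rescue. How Wnt5a, a secreted Wnt ligand, was supplied or altered is not given in the sources used here. WT Reserve and KO Reserve are further groups labelled reserve, of wild-type and knockout origin by their titles, although a second field of KO Reserve joins the words wild type and ko. The stated sort for all groups is Lineage- Sca-1+ c-Kit+ CD34- Flk2- CD49b low. No label ties a replicate to its own mouse, so p-values measure the spread between these libraries, which may be partly technical. Ages and sexes of the mice are not given in the labels.

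Replication starts with licensing, in which the origin recognition complex and Cdc6 load the ring-shaped MCM2-7 helicase onto DNA before S phase. Cyclin E and E2F1 drive the entry into S phase, the kinase Cdc7 and the Cdc45 and GINS proteins turn the loaded ring into a running helicase, and DNA polymerase alpha with its primase lays down primers that polymerases epsilon and delta extend. The clamp PCNA, its RFC loader, the single-strand binding protein RPA, the ligase and nuclease that join Okazaki fragments, the enzymes of deoxynucleotide supply and the chromatin assembly factor complete the machinery. LT-HSC are known as a mostly quiescent population, and transcripts of this machinery are widely read as a sign of cycling cells.

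The replication genes were well expressed in all groups. The median group mean over the 41 genes ran from 63.7 FPKM in Wnt5a to 74.2 FPKM in KO Ctrl, with 65.5 FPKM in WT, 66.0 FPKM in WT Reserve and 73.9 FPKM in KO Reserve. Means of at least 100 FPKM were reached by 10 genes in WT and Wnt5a and by 14 to 16 genes in the other groups. Over all 18 libraries the highest means per role were those of Tyms, the thymidylate synthase (409.1 FPKM), Rfc2, a subunit of the clamp loader (359.6 FPKM), and Mcm3, a helicase subunit (228.5 FPKM). Lig1, the replicative DNA ligase (95.5 FPKM), Orc6 of the origin recognition complex (94.5 FPKM), the primase subunit Prim1 (90.3 FPKM), Chaf1b of the chromatin assembly factor (78.7 FPKM), the GINS subunit Gins4 (76.5 FPKM) and Ccne1, which encodes cyclin E1 (36.7 FPKM), led the other 6 roles. The lowest member was Ung, a uracil-DNA glycosylase, with 2.48, 2.73 and 2.05 FPKM in WT, 1.86, 1.82 and 1.37 FPKM in Wnt5a, 2.25, 2.70 and 3.68 FPKM in KO Ctrl and 2.13, 2.36 and 2.65 FPKM in KO Wnt5a. In WT Reserve Ung had 3.16, 1.81 and 3.46 FPKM and in KO Reserve 2.77, 4.19 and 3.80 FPKM. Ung passed the test in none of the 10 comparisons of the limma fit.

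The deposited values imply 20700000 to 41500000 fragments per library, and replicates correlated at 0.932 to 0.968 across genes on the log2 scale. The first principal component held 53.3% of the variance. Many cell markers separated the 6 reserve libraries from the other 12, whose column names also follow another pattern of unstated meaning. Summed FPKM of 7 granulocyte markers was 4472 to 10280.0 in WT Reserve and 2401 to 3613 in KO Reserve against 57.8 to 67.1 in WT and 6.504 to 10.5 in KO Ctrl, and all 7 were above 1 FPKM in every reserve library. Sums of 9 erythroid markers were 5132 to 7099 and 7538 to 9242 against 400.3 to 460.4 in WT and 434.3 to 533.0 in KO Ctrl, where Car1 and Hba-a1 were listed at 0 in all 3 libraries. Sums of 6 B lymphoid markers were 2040.0 to 2385 and 1550.0 to 1888 against 28.2 to 35.7 in WT and 63.8 to 71.6 in KO Ctrl. The 5 megakaryocyte markers went the other way, at 176 to 194 in WT Reserve and 75.0 to 128 in KO Reserve against 19940.0 to 29400.0 in WT and 11080.0 to 18400.0 in KO Ctrl. Cd34, whose protein the sort excludes, had means of 358 FPKM in WT, 402 FPKM in KO Ctrl, 67.8 FPKM in WT Reserve and 10.65 FPKM in KO Reserve. Cd48, which is known from more mature progenitors and blood cells, had 14.2, 11.2, 199.7 and 114 FPKM in the same order. Procr, which encodes the stem cell marker EPCR, had 4.88, 6.28, 17.5 and 1.42 FPKM, and Slamf1, which encodes CD150, 38.2, 29.8, 12.03 and 3.95 FPKM. Hlf had 4.805, 7.83, 12.09 and 1.83 FPKM, and Ly6a 90.85, 184.5, 151.9 and 21.88 FPKM. By the limma fit below, 7 of 10 stem cell and gate genes tested were higher in WT Reserve than in WT and 2 lower. Of all genes, 30.8% were higher and 27.9% lower. In KO Reserve against KO Ctrl 2 of the 10 were higher and 7 lower, beside 24.8% and 40.4% of all genes. Itga2, which encodes CD49b, and Hoxb5 were below 1 FPKM in at least 1 library of every group. Each reserve comparison below therefore also compares libraries with different contents of such transcripts. The part of other cells in the replication gene differences was not tested, and in bulk libraries fewer cells of a type and less RNA per cell cannot be told apart.

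**Figure D1:**
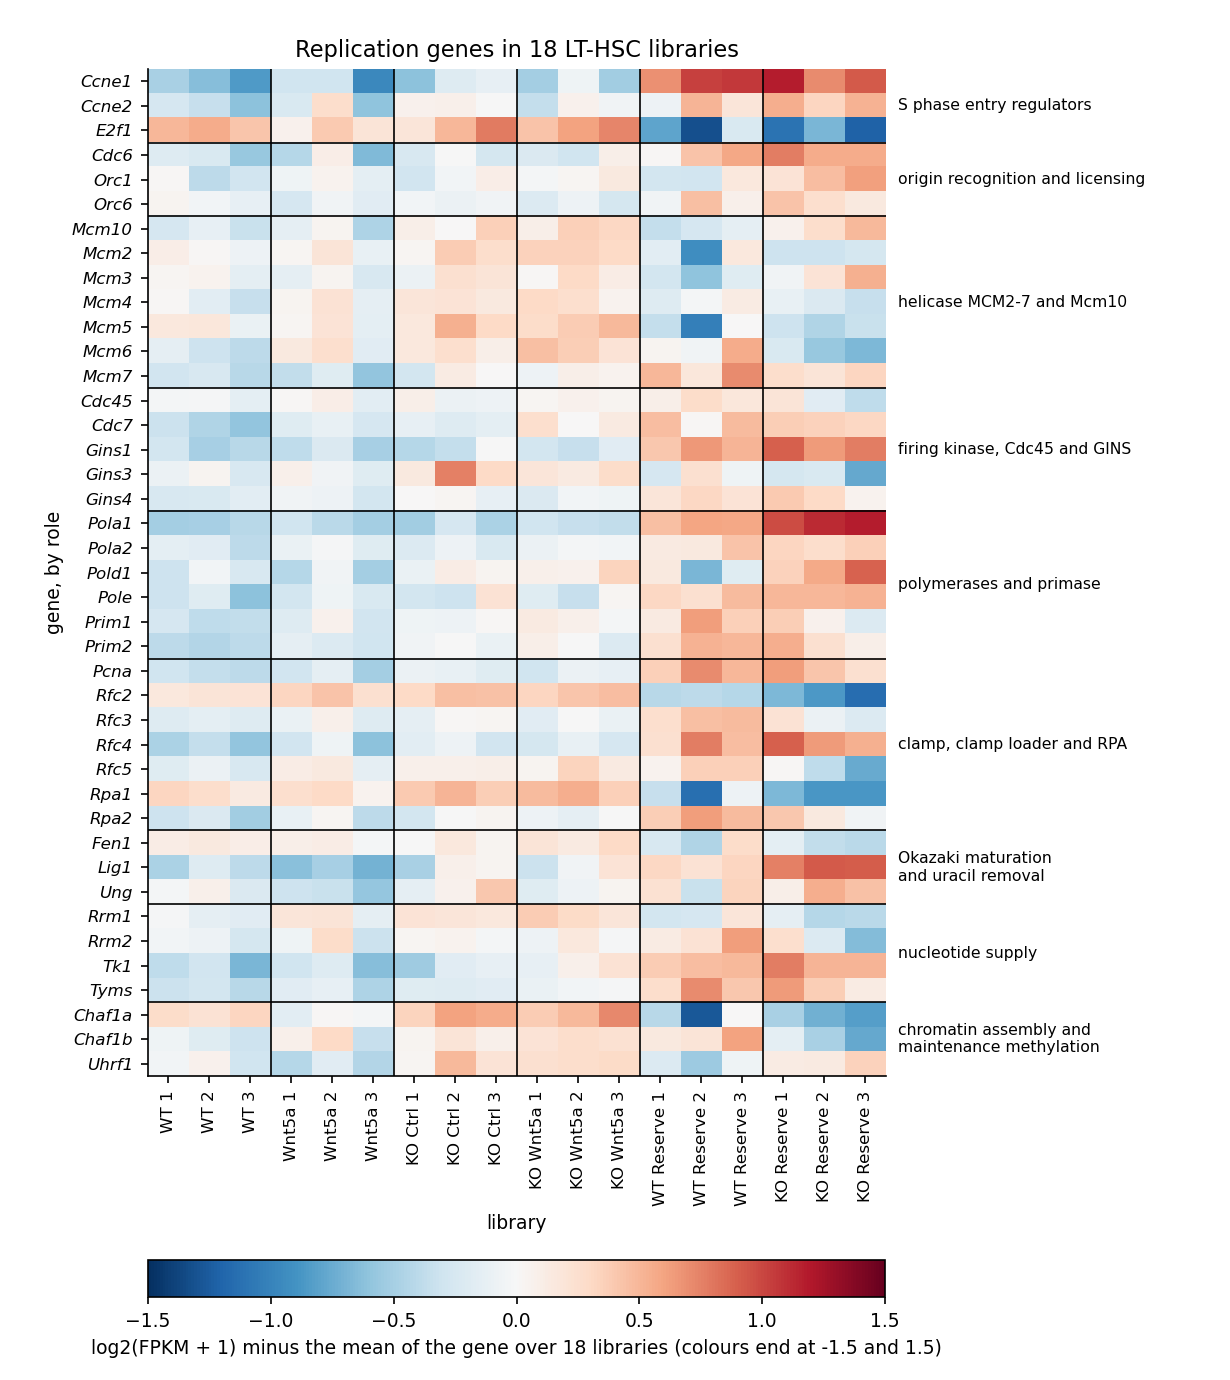
Level of 41 replication genes in 18 libraries, in rows grouped by role, as log2(FPKM + 1) minus the mean of the gene over all libraries. The reserve libraries on the right hold the strongest colours in both directions, red for Ccne1, Pola1 and Lig1 and blue for E2f1, Rpa1, Chaf1a and Rfc2.

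The largest differences of the replication genes lay between the reserve libraries and the others of the same genotype. On log2(FPKM + 1), with 1 mean per group fitted to all 18 libraries by limma and an adjusted p below 0.05 taken as a call, 22 of 41 genes were higher in WT Reserve than in WT and 5 were lower, where 30.8% of all 14285 genes tested were called higher and 27.9% lower. The median difference was 0.45 for the 41 genes and 0.06 for all genes. In the knockout, 17 of 41 were higher in KO Reserve than in KO Ctrl and 13 were lower, where 24.8% of all genes were called higher and 40.4% lower, with medians of 0.25 and -0.19. The pairs of groups behind these comparisons share no library. Median-ratio scaling of the libraries moved the median of all genes by over 0.1 wherever KO Reserve is involved: it was then 0.05 for KO Reserve against KO Ctrl and 0.02 for KO Reserve against WT Reserve, in place of -0.17 for the latter. Under that scaling 25 of the 41 genes were called higher and 6 lower in KO Reserve against KO Ctrl, and under quantile normalization 20 and 9. In the wild type the counts were 23 and 5 under median-ratio scaling and 23 and 6 under quantile normalization. The shares of all genes called under these scalings are not given here, and the shares above belong to the unscaled values alone.

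In both genotypes 14 of the 41 replication genes rose in the reserve libraries, Ccne1, Cdc6, Cdc7, Gins1, Gins4, Lig1, Pcna, Pola1, Pola2, Pole, Prim2, Rfc4, Tk1 and Tyms, where 18.1% of all genes were called higher in both. In both 5 genes fell, Chaf1a, E2f1, Mcm5, Rfc2 and Rpa1, where 24.5% of all genes were called lower in both. The 3 genes Chaf1b, Mcm6 and Rfc5 were called higher in WT Reserve and lower in KO Reserve, as were 2.77% of all genes. Of the other 19 genes, 5 were called higher in the wild type alone, 3 higher and 5 lower in the knockout alone, and 6 in neither. The shares of all genes in these classes are not given here, so these counts cannot be set against them. Leaving out each library in turn gave 12 to 15 genes higher in both and 4 to 7 lower in both. The 7 were counted without WT Reserve replicate 3. Over these and the other processing settings, 11 of the 14 and 3 of the 5 were called in every one. The 3 opposite calls were lost without WT replicate 3 and without WT Reserve replicate 3, each of which left 0 genes, and median-ratio scaling left only Mcm6.

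**Figure D2:**
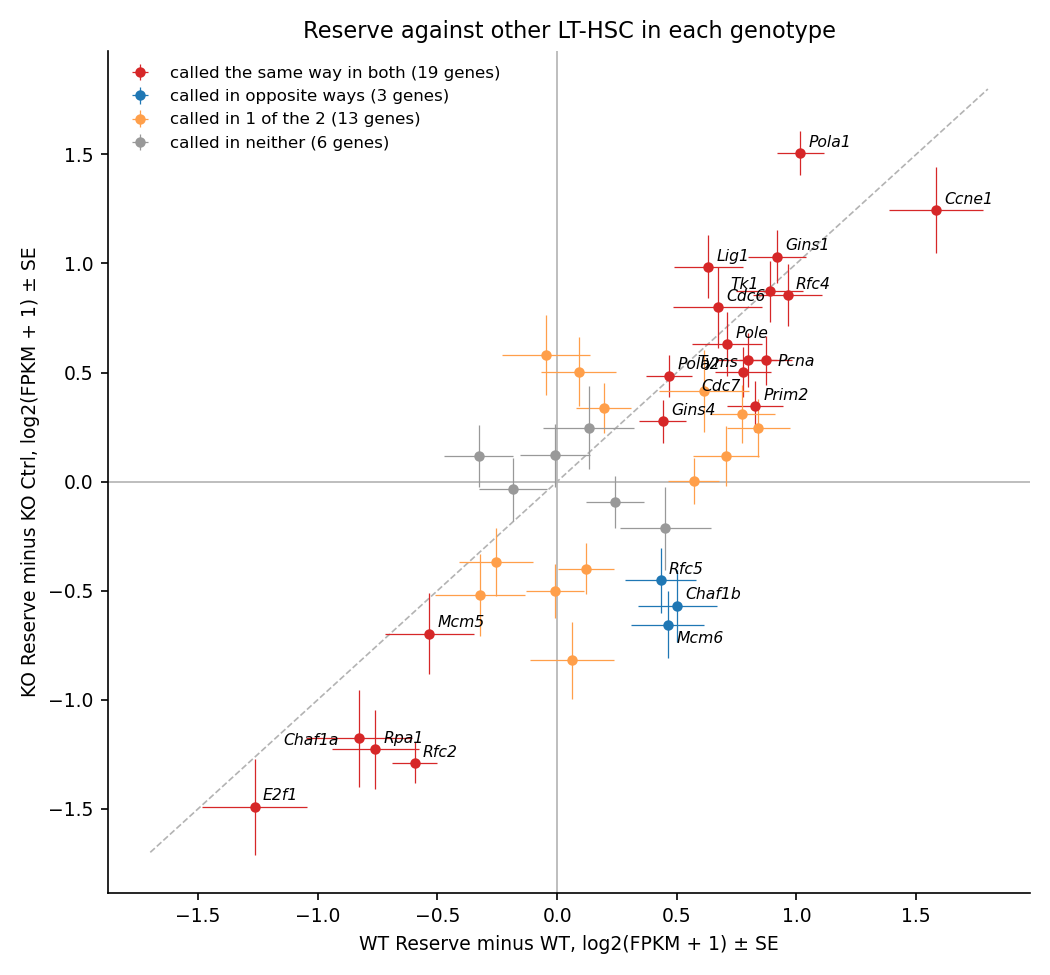
Difference of each of 41 replication genes between reserve and other libraries on log2(FPKM + 1), in the wild type on the horizontal axis and in the knockout on the vertical axis, with standard errors of the limma fit. Of the 41 points, 19 were called the same way in both and 3, Rfc5, Chaf1b and Mcm6, in opposite ways, and the dashed line marks equal differences.

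The regulators of S phase entry split. Ccne1 (ENSMUSG00000002068, chr7:38097984-38107534, minus strand) had 22.8, 20.4 and 17.4 FPKM in WT, 26.2, 26.1 and 16.1 FPKM in Wnt5a, 20.8, 28.1 and 29.7 FPKM in KO Ctrl and 22.4, 30.9 and 22.3 FPKM in KO Wnt5a. In WT Reserve Ccne1 had 52.5, 67.1 and 68.5 FPKM and in KO Reserve 74.3, 53.6 and 62.0 FPKM. All 6 reserve libraries stood above all 12 others. The difference was 1.58 ± 0.20 (SE) in the wild type (limma adjusted p = 3.18e-06), the largest rise among the 41 genes there, and 1.25 ± 0.20 in the knockout (limma adjusted p = 3.27e-05). Ccne2, which encodes cyclin E2, had 27.7, 25.9 and 21.3 FPKM in WT, 28.2, 40.1 and 21.7 FPKM in Wnt5a, 34.9, 35.2 and 33.2 FPKM in KO Ctrl and 25.7, 34.8 and 32.0 FPKM in KO Wnt5a. In WT Reserve Ccne2 had 31.5, 48.0 and 37.8 FPKM and in KO Reserve 48.8, 42.0 and 48.3 FPKM. It was called higher in WT Reserve (0.61 ± 0.19, limma adjusted p = 0.0101) but not without WT replicate 3 (adjusted p = 0.0526) or without WT Reserve replicate 2 (adjusted p = 0.058), and its exons overlap those of Ints8 on the other strand. E2f1 (ENSMUSG00000027490, chr2:154559407-154569892, minus strand), a transcription factor that activates replication genes, had 25.5, 26.7 and 24.1 FPKM in WT, 18.6, 23.8 and 20.5 FPKM in Wnt5a, 20.3, 25.7 and 31.4 FPKM in KO Ctrl and 24.4, 27.5 and 30.2 FPKM in KO Wnt5a. In WT Reserve E2f1 had 9.91, 6.58 and 15.1 FPKM and in KO Reserve 7.73, 10.7 and 7.13 FPKM. Every reserve library was below every other library, opposite to Ccne1. E2f1 fell by 1.26 ± 0.22 in the wild type (limma adjusted p = 0.00011) and fell by 1.49 ± 0.22 in the knockout (limma adjusted p = 1.55e-05).

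Of the 3 licensing genes measured, Cdc6, the loader of the MCM ring, had 21.2, 20.8 and 16.1 FPKM in WT, 17.9, 26.2 and 15.04 FPKM in Wnt5a, 20.5, 24.2 and 20.1 FPKM in KO Ctrl and 20.8, 19.7 and 26.1 FPKM in KO Wnt5a. In WT Reserve Cdc6 had 24.8, 33.1 and 37.0 FPKM and in KO Reserve 42.1, 36.3 and 36.4 FPKM. KO Reserve lay above all 12 non-reserve libraries, while the lowest WT Reserve library overlapped with Wnt5a and KO Wnt5a. Cdc6 rose by 0.67 ± 0.19 in the wild type (limma adjusted p = 0.00525) and by 0.80 ± 0.19 in the knockout (limma adjusted p = 0.00119). Orc6 had 96.6, 90.9 and 86.1 FPKM in WT, 78.2, 90.3 and 82.7 FPKM in Wnt5a, 90.7, 88.2 and 90.4 FPKM in KO Ctrl and 81.2, 88.9 and 78.0 FPKM in KO Wnt5a. In WT Reserve Orc6 had 89.8, 129 and 98.3 FPKM and in KO Reserve 126, 112 and 104 FPKM. WT and WT Reserve overlapped for Orc6, and it was called higher only in the knockout comparison (0.34 ± 0.12, limma adjusted p = 0.0163), a call lost without KO Reserve replicate 1 (adjusted p = 0.0746). Orc1, the largest subunit of the origin recognition complex, had 7.70, 9.32 and 10.3 FPKM in KO Ctrl and 11.3, 13.6 and 15.3 FPKM in KO Reserve and was likewise called higher in the knockout (0.50 ± 0.16, limma adjusted p = 0.00949), but not without KO Ctrl replicate 1 (adjusted p = 0.0504). Of the 3479 exonic bases of Orc1, 376 are shared with Gm12743 on the other strand.

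The 6 subunits of the MCM2-7 ring did not move together. In WT Reserve against WT, Mcm6 and Mcm7 were called higher, Mcm5 lower, and Mcm2, Mcm3 and Mcm4 were not called. In KO Reserve against KO Ctrl, Mcm2, Mcm4, Mcm5 and Mcm6 were called lower and none higher, and under median-ratio scaling this became 1 lower and 3 higher among the 7 genes with Mcm10. Mcm6 (ENSMUSG00000026355, chr1:128331590-128359664, minus strand) had 155, 136 and 129 FPKM in WT, 188, 202 and 150 FPKM in Wnt5a, 189.7, 201 and 180.1 FPKM in KO Ctrl and 231, 218 and 196 FPKM in KO Wnt5a. In WT Reserve Mcm6 had 175, 164 and 249.6 FPKM and in KO Reserve 145, 114 and 106 FPKM. WT Reserve lay above WT, and KO Reserve below KO Ctrl, with no overlap in either pair. The differences were 0.46 ± 0.15 (limma adjusted p = 0.0155) and -0.66 ± 0.15 (limma adjusted p = 0.0012), and the former was 0.41 without WT replicate 3 (adjusted p = 0.061) and 0.28 without WT Reserve replicate 3 (adjusted p = 0.105). Mcm7 had 101, 104 and 92.1 FPKM in WT, 174, 138 and 202 FPKM in WT Reserve, 101, 135 and 123 FPKM in KO Ctrl and 148, 140.4 and 155 FPKM in KO Reserve. It was higher in every reserve library than in its non-reserve counterparts, with 0.77 ± 0.13 in the wild type (limma adjusted p = 0.000104), but its exons overlap those of Cops6 and Ap4m1 on the other strand and hold Mir25 and Mir93, which unstranded counting cannot separate. Mcm4 had 62.4, 55.2 and 48.3 FPKM in WT, 63.4, 71.9 and 55.9 FPKM in Wnt5a, 69.6, 71.0 and 68.1 FPKM in KO Ctrl and 76.0, 73.2 and 63.7 FPKM in KO Wnt5a. In WT Reserve Mcm4 had 53.4, 60.2 and 66.8 FPKM and in KO Reserve 56.8, 52.8 and 48.3 FPKM. For Mcm4, KO Reserve lay below KO Ctrl in all libraries (-0.40 ± 0.12, limma adjusted p = 0.00711), a difference of -0.08 under median-ratio scaling (adjusted p = 0.509).

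For Mcm2 and Mcm5 a single wild-type library stood apart. Mcm2 had 68.7, 39.5 and 85.7 FPKM in WT Reserve against 81.7, 77.7 and 72.6 FPKM in WT, and Mcm5 had 74.3, 46.5 and 95.8 FPKM against 106, 108 and 89.3 FPKM. WT Reserve replicate 2 was the lowest of all 18 libraries for both genes, and also for Mcm3, Rpa1, Chaf1a, Uhrf1, E2f1, Pold1 and Fen1. Without it, the difference of Mcm5 in the wild type was -0.25 (limma adjusted p = 0.131) in place of -0.53 ± 0.18 (limma adjusted p = 0.0201), and the call was also lost without WT replicate 1 (adjusted p = 0.0613) or WT replicate 2 (adjusted p = 0.0641). In the knockout, Mcm5 had 107, 139 and 117 FPKM in KO Ctrl and 76.6, 69.5 and 75.5 FPKM in KO Reserve, and Mcm2 had 78.2, 99.6 and 91.7 FPKM and 61.3, 61.3 and 63.4 FPKM. Neither gene overlapped between these groups. Mcm5 fell by 0.70 ± 0.18 (limma adjusted p = 0.00328) and Mcm2 fell by 0.52 ± 0.19 (limma adjusted p = 0.0217), the latter not called without KO Ctrl replicate 2 (adjusted p = 0.082), KO Ctrl replicate 3 (adjusted p = 0.0546) or KO Reserve replicate 2 (adjusted p = 0.0512). Median-ratio scaling ended both calls, with -0.38 for Mcm5 (limma adjusted p = 0.0615) and -0.20 for Mcm2 (limma adjusted p = 0.318).

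Of the 5 genes that fire origins, Gins1, Gins4 and Cdc7 rose in both genotypes. Gins1 (ENSMUSG00000027454, chr2:150905400-150931280, plus strand), a GINS subunit of the active helicase, had 37.3, 32.0 and 34.0 FPKM in WT, 34.6, 39.0 and 32.1 FPKM in Wnt5a, 33.5, 35.4 and 45.3 FPKM in KO Ctrl and 37.4, 35.6 and 40.3 FPKM in KO Wnt5a. In WT Reserve Gins1 had 60.6, 72.1 and 65.4 FPKM and in KO Reserve 85.5, 71.5 and 78.4 FPKM. No reserve library overlapped with any other library. Gins1 rose by 0.92 ± 0.12 in the wild type (limma adjusted p = 5.38e-06) and 1.03 ± 0.12 in the knockout (limma adjusted p = 1.05e-06). Gins4 rose less, with 64.0, 64.7 and 67.8 FPKM in WT, 73.1, 71.7 and 62.2 FPKM in Wnt5a, 75.9, 77.5 and 69.3 FPKM in KO Ctrl and 64.9, 73.7 and 72.7 FPKM in KO Wnt5a. In WT Reserve Gins4 had 86.3, 93.9 and 87.7 FPKM and in KO Reserve 99.7, 93.3 and 78.4 FPKM. All reserve values of Gins4 were above all others, and its knockout difference of 0.28 ± 0.10 (limma adjusted p = 0.0198) was no longer called without KO Reserve replicate 1 (adjusted p = 0.092), KO Reserve replicate 2 (adjusted p = 0.0662) or KO Ctrl replicate 3 (adjusted p = 0.0814). Cdc7, the kinase that triggers firing, had 30.6, 28.1 and 25.2 FPKM in WT, 34.0, 35.6 and 32.2 FPKM in Wnt5a, 35.3, 33.5 and 34.7 FPKM in KO Ctrl and 46.2, 38.8 and 42.5 FPKM in KO Wnt5a. In WT Reserve Cdc7 had 53.5, 39.2 and 54.2 FPKM and in KO Reserve 50.2, 49.5 and 48.2 FPKM. WT was the lowest group for Cdc7, the 3 KO Reserve libraries differed by about 2 FPKM, and WT Reserve replicate 2 lay within the KO Wnt5a range. Cdc7 rose by 0.78 ± 0.12 in the wild type (limma adjusted p = 2.37e-05) and 0.50 ± 0.12 in the knockout (limma adjusted p = 0.00114).

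Cdc45, the helicase cofactor, was called in neither reserve comparison, with differences of 0.24 ± 0.12 in the wild type and -0.09 ± 0.12 in the knockout. Gins3 was called lower in the knockout alone, with 14.1, 22.2 and 15.8 FPKM in KO Ctrl and 10.4, 10.7 and 7.04 FPKM in KO Reserve (-0.82 ± 0.18, limma adjusted p = 0.00064). The Gins3 values of these groups did not overlap. Under quantile normalization the limma difference was -0.41 (adjusted p = 0.0631).

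Polymerase and primase genes were called higher in 5 of 6 cases in each genotype and lower in none. Of all genes, 30.8% were called higher and 27.9% lower in the wild type, and 24.8% and 40.4% in the knockout. Pola1 (ENSMUSG00000006678, chrX:93304767-93632155, minus strand), the catalytic subunit of polymerase alpha, had 15.9, 16.1 and 17.2 FPKM in WT, 18.6, 17.3 and 16.0 FPKM in Wnt5a, 15.9, 19.3 and 16.4 FPKM in KO Ctrl and 18.6, 18.1 and 17.76 FPKM in KO Wnt5a. In WT Reserve Pola1 had 31.9, 35.4 and 35.3 FPKM and in KO Reserve 46.6, 51.7 and 53.5 FPKM. The 12 non-reserve libraries formed a narrow band, WT Reserve lay above it and KO Reserve above WT Reserve, without overlap. The ratio of means was 2.09 in the wild type (1.02 ± 0.10, limma adjusted p = 1.86e-07) and 2.94 in the knockout (1.51 ± 0.10, limma adjusted p = 9.79e-10). Pola2, the accessory subunit of polymerase alpha, changed less, with 56.6, 55.7 and 47.6 FPKM in WT, 58.4, 61.9 and 55.1 FPKM in Wnt5a, 54.3, 59.1 and 53.2 FPKM in KO Ctrl and 58.9, 61.5 and 60.7 FPKM in KO Wnt5a. In WT Reserve Pola2 had 68.6, 69.6 and 84.4 FPKM and in KO Reserve 78.6, 75.3 and 80.4 FPKM. All 6 reserve values of Pola2 exceeded all others, with rises of 0.47 ± 0.10 (limma adjusted p = 0.000476) and 0.49 ± 0.10 (limma adjusted p = 0.000277). The primase subunit Prim2 had 30.3, 29.3 and 30.2 FPKM in WT, 36.5, 34.7 and 32.4 FPKM in Wnt5a, 38.4, 40.0 and 37.3 FPKM in KO Ctrl and 42.7, 39.8 and 34.6 FPKM in KO Wnt5a. In WT Reserve Prim2 had 47.6, 57.9 and 57.0 FPKM and in KO Reserve 58.8, 47.4 and 42.8 FPKM. WT was the lowest and tightest group for Prim2, which rose by 0.83 ± 0.12 in the wild type (limma adjusted p = 1.25e-05) and by 0.34 ± 0.12 in the knockout (limma adjusted p = 0.0161), where KO Reserve replicate 3 stood barely above the highest KO Wnt5a library and leaving out KO Reserve replicate 1 gave 0.22 (adjusted p = 0.0991).

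Prim1, the catalytic primase subunit, had 74.4, 68.2 and 68.3 FPKM in WT, 77.7, 92.6 and 72.8 FPKM in Wnt5a, 84.6, 84.2 and 89.9 FPKM in KO Ctrl and 97.2, 93.8 and 87.3 FPKM in KO Wnt5a. In WT Reserve Prim1 had 97.9, 137 and 114 FPKM and in KO Reserve 115, 92.9 and 76.7 FPKM. It rose in the wild type (0.71 ± 0.14, limma adjusted p = 0.000319), while KO Reserve and KO Ctrl overlapped and did not pass the test (0.12 ± 0.14, limma adjusted p = 0.469). Pole, the catalytic subunit of polymerase epsilon, had 21.3, 23.4 and 17 FPKM in WT, 21.8, 21.3 and 31.0 FPKM in KO Ctrl, 33.4, 31.5 and 37.4 FPKM in WT Reserve and 37.9, 38.1 and 38.8 FPKM in KO Reserve, and rose in both (0.71 ± 0.15 and 0.63 ± 0.15, limma adjusted p = 0.000534 and 0.00121). Pold1, the catalytic subunit of polymerase delta, had 48.9, 59.4 and 51.3 FPKM in WT, 45.0, 58.5 and 42.6 FPKM in Wnt5a, 56.9, 66.1 and 62.7 FPKM in KO Ctrl and 64.2, 63.6 and 77.2 FPKM in KO Wnt5a. In WT Reserve Pold1 had 67.3, 37.5 and 53.5 FPKM and in KO Reserve 77.4, 90.8 and 114 FPKM. WT Reserve scattered around the WT values of Pold1, and only the knockout comparison was called (0.58 ± 0.18, limma adjusted p = 0.0107), with 0.43 and an adjusted p of 0.0636 without KO Reserve replicate 3.

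**Figure D3:**
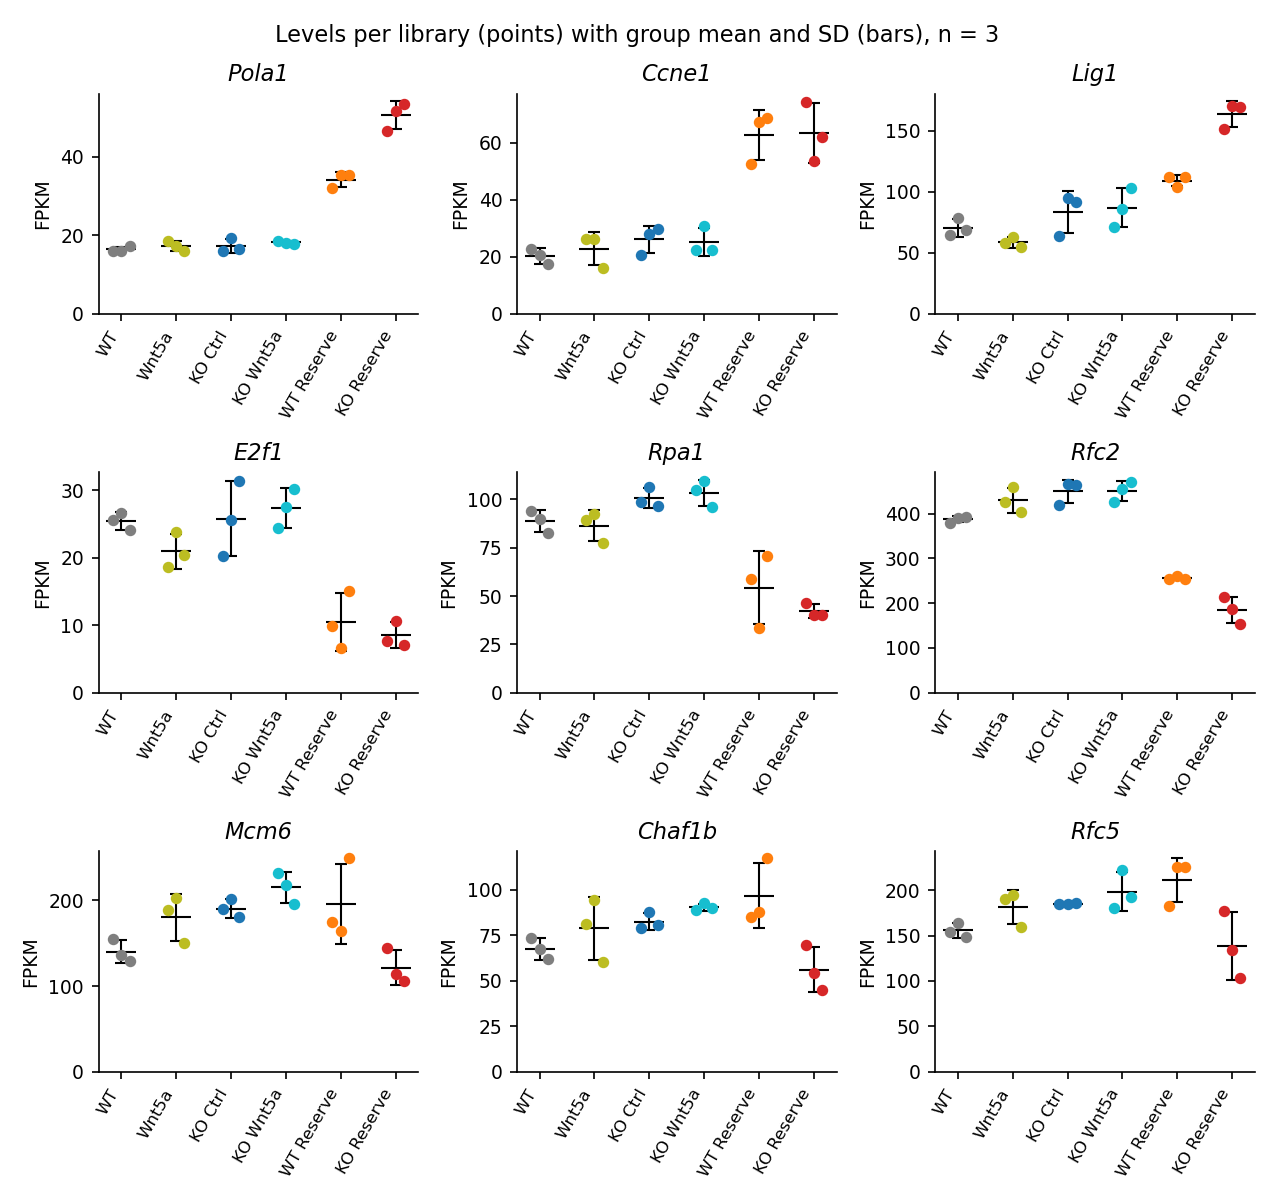
FPKM of 9 replication genes in each of 18 libraries (points, 3 per group) with the mean and SD of each group (bars), on axes that start at 0. Pola1, Ccne1 and Lig1 were higher in every reserve library than in any other, E2f1, Rpa1 and Rfc2 were lower in every one, and Mcm6, Chaf1b and Rfc5 were higher in WT Reserve and lower in KO Reserve than in their counterparts.

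Within the clamp, its loader and RPA, subunits of the same complex went in opposite directions. Pcna, the sliding clamp, had 181, 174 and 169.8 FPKM in WT, 182, 203 and 155 FPKM in Wnt5a, 209, 206 and 196 FPKM in KO Ctrl and 181, 209 and 205 FPKM in KO Wnt5a. In WT Reserve Pcna had 286, 364 and 316 FPKM and in KO Reserve 344, 297 and 264 FPKM. All reserve libraries were above all others, with rises of 0.87 ± 0.11 (limma adjusted p = 4.83e-06) and 0.56 ± 0.11 (limma adjusted p = 0.000362), and reads of its processed copies Pcna-ps1 and Pcna-ps2 may be split. Rfc2 (ENSMUSG00000023104, chr5:134581366-134601805, plus strand) had 379.7, 390.0 and 393 FPKM in WT, 426, 459 and 403 FPKM in Wnt5a, 419.8, 466 and 464 FPKM in KO Ctrl and 427, 455 and 470.0 FPKM in KO Wnt5a. In WT Reserve Rfc2 had 255, 260.2 and 253 FPKM and in KO Reserve 213, 187 and 154 FPKM. No reserve library reached any other library, and KO Reserve lay below WT Reserve. Rfc2 fell by 0.60 ± 0.09 in the wild type (limma adjusted p = 4.12e-05) and fell by 1.29 ± 0.09 in the knockout (limma adjusted p = 3.36e-09), and 952 of its 6303 exonic bases are shared with Lat2 on the other strand.

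Rfc4, another loader subunit, rose from 139, 150.2 and 128 FPKM in WT to 228, 329 and 267 FPKM in WT Reserve and from 173, 183 and 158 FPKM in KO Ctrl to 359, 299.8 and 279 FPKM in KO Reserve (0.96 ± 0.14 and 0.86 ± 0.14, limma adjusted p = 2.16e-05 and 5.65e-05). Its reserve libraries were above all others in both genotypes, and 194 of its 1533 exonic bases are shared with Eif4a2 on the other strand. Rfc5 had 154, 164 and 148 FPKM in WT, 190.1, 194 and 159 FPKM in Wnt5a, 184, 185 and 186 FPKM in KO Ctrl and 180.2, 222 and 192 FPKM in KO Wnt5a. In WT Reserve Rfc5 had 183, 226 and 225 FPKM and in KO Reserve 177, 134 and 103 FPKM. The 3 KO Ctrl values of Rfc5 were within 2 FPKM of each other, and all KO Reserve values were below them (-0.45 ± 0.15, limma adjusted p = 0.0131), with -0.26 and an adjusted p of 0.0932 without KO Reserve replicate 3 and -0.13 and 0.393 under median-ratio scaling. In the wild type it rose by 0.43 ± 0.15 (limma adjusted p = 0.0191), with adjusted p values of 0.0613 to 0.0638 without WT replicate 3, WT Reserve replicate 2 or WT Reserve replicate 3. Of the 4669 exonic bases of Rfc5, 499 are shared with Wsb2 on the other strand. Rfc3 had 98.1, 101 and 98.0 FPKM in WT, 105, 119 and 98.1 FPKM in Wnt5a, 102, 114 and 114 FPKM in KO Ctrl and 99.6, 112 and 104 FPKM in KO Wnt5a. In WT Reserve Rfc3 had 133, 154 and 156 FPKM and in KO Reserve 130.4, 105 and 97.2 FPKM. WT Reserve lay above WT for Rfc3 (0.57 ± 0.11, limma adjusted p = 0.000201), and KO Reserve overlapped with KO Ctrl (0.00 ± 0.11, limma adjusted p = 0.98).

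Rpa1, the large subunit of RPA, had 93.9, 89.7 and 82.5 FPKM in WT, 89.4, 92.2 and 77.3 FPKM in Wnt5a, 98.8, 107 and 96.7 FPKM in KO Ctrl and 105, 109 and 95.9 FPKM in KO Wnt5a. In WT Reserve Rpa1 had 58.7, 33.6 and 70.8 FPKM and in KO Reserve 46.6, 40.4 and 40.4 FPKM. Every reserve library was below every other library, and WT Reserve replicate 2 was the lowest. Rpa1 fell by 0.76 ± 0.18 in the wild type (limma adjusted p = 0.00174) and fell by 1.23 ± 0.18 in the knockout (limma adjusted p = 1.49e-05). Rpa2, the middle subunit of the same trimer, went from 87.7, 94.1 and 75.8 FPKM in WT to 142, 169.6 and 152 FPKM in WT Reserve (0.84 ± 0.13, limma adjusted p = 3.84e-05). In the knockout Rpa2 had 90.1, 109 and 113 FPKM in KO Ctrl and 144, 121 and 106 FPKM in KO Reserve, which overlapped and did not pass the test (0.25 ± 0.13, limma adjusted p = 0.113).

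Among the genes of Okazaki fragment maturation, Lig1 had 64.5, 78.4 and 68.4 FPKM in WT, 57.9, 63.0 and 54.7 FPKM in Wnt5a, 63.8, 94.8 and 92.1 FPKM in KO Ctrl and 71.3, 86.2 and 103 FPKM in KO Wnt5a. In WT Reserve Lig1 had 112, 104 and 112 FPKM and in KO Reserve 152, 171 and 169.6 FPKM. The reserve libraries exceeded all others, and KO Reserve exceeded WT Reserve, with rises of 0.63 ± 0.14 (limma adjusted p = 0.00124) and 0.98 ± 0.14 (limma adjusted p = 1.43e-05). Fen1, the flap nuclease, ranged from 3.23 to 6.15 FPKM over the 18 libraries and was called lower in the knockout alone (-0.37 ± 0.15, limma adjusted p = 0.0456). That call was lost when any of 5 libraries was left out (KO Ctrl replicates 1, 2 and 3 and KO Reserve replicates 2 and 3, with adjusted p of 0.0554 to 0.125), and 2039 of the 2422 exonic bases of Fen1 are shared with Gm10143 and Tmem258 on the other strand, so its level is uncertain.

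Of the 4 genes of deoxynucleotide supply, Tk1 and Tyms rose in both genotypes. Tyms had 317, 328 and 299 FPKM in WT, 352, 365 and 288 FPKM in Wnt5a, 349, 348 and 353 FPKM in KO Ctrl and 370.4, 385 and 391 FPKM in KO Wnt5a. In WT Reserve Tyms had 477, 650.3 and 527 FPKM and in KO Reserve 618, 512 and 432 FPKM. Its reserve values were above all others, with 0.80 ± 0.12 (limma adjusted p = 3.59e-05) and 0.56 ± 0.12 (limma adjusted p = 0.000848), but under quantile normalization the knockout value was 0.13 (adjusted p = 0.24), and a pseudogene, Tyms-ps, may take part of its reads. Tk1, thymidine kinase, had 87.3, 92.9 and 70.6 FPKM in WT, 92.3, 99.4 and 72.9 FPKM in Wnt5a, 78.4, 101 and 104 FPKM in KO Ctrl and 104, 120.2 and 133 FPKM in KO Wnt5a. In WT Reserve Tk1 had 148, 157 and 159 FPKM and in KO Reserve 195, 163 and 162 FPKM. No reserve library overlapped with the others for Tk1, which rose by 0.89 ± 0.14 (limma adjusted p = 4.05e-05) and 0.87 ± 0.14 (limma adjusted p = 3.78e-05). Rrm1, the large subunit of ribonucleotide reductase, had 122, 112 and 109 FPKM in WT, 139, 140.1 and 112 FPKM in Wnt5a, 142, 139 and 137 FPKM in KO Ctrl and 160.4, 151 and 139 FPKM in KO Wnt5a. In WT Reserve Rrm1 had 102, 103 and 139.5 FPKM and in KO Reserve 112, 91.3 and 92.3 FPKM. KO Reserve lay below KO Ctrl in all libraries (-0.50 ± 0.12, limma adjusted p = 0.00174), with -0.18 under median-ratio scaling (adjusted p = 0.152), while Rrm2, the small subunit, was called in neither reserve comparison (0.45 ± 0.19 and -0.21 ± 0.19).

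The subunits of chromatin assembly factor 1, which places histones on new DNA, also differed. Chaf1a had 17.9, 17.1 and 18.5 FPKM in WT, 10.7, 5.46 and 14.7 FPKM in WT Reserve, 18.6, 22.8 and 22.0 FPKM in KO Ctrl and 10.1, 8.46 and 7.83 FPKM in KO Reserve. The reserve libraries were lower in both genotypes without overlap (-0.83 ± 0.22 and -1.18 ± 0.22, limma adjusted p = 0.00402 and 0.000178), but 4648 of its 8854 exonic bases are shared with Ubxn6 on the other strand. Chaf1b (ENSMUSG00000022945, chr16:93883901-93906115, plus strand) had 73.4, 67.4 and 61.7 FPKM in WT, 81.4, 94.5 and 60.5 FPKM in Wnt5a, 78.8, 87.9 and 80.7 FPKM in KO Ctrl and 88.6, 92.4 and 89.8 FPKM in KO Wnt5a. In WT Reserve Chaf1b had 85.3, 87.7 and 117 FPKM and in KO Reserve 69.4, 54.3 and 44.7 FPKM. It was higher in WT Reserve than in WT (0.50 ± 0.17, limma adjusted p = 0.0153) and lower in KO Reserve than in KO Ctrl (-0.57 ± 0.17, limma adjusted p = 0.00622), again without overlap. The wild-type limma call was lost without WT replicate 3 (0.44, adjusted p = 0.0606) and without WT Reserve replicate 3 (0.36, adjusted p = 0.0882), and the knockout call under median-ratio scaling (-0.25, adjusted p = 0.136). Uhrf1, which recruits the maintenance DNA methyltransferase to new DNA, was called in neither comparison.

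Promoters of these genes were read from RefSeq because E2F proteins are known regulators of replication genes and E2f1 itself fell while other members rose. RefSeq windows on GRCm38.p6, from 250 bases before to 50 bases after each start, matched 34 of the 41 genes. The E2F motif searched, in both strands, was any of TTTCCCGC, TTTCGCGC, TTTGCCGC and TTTGGCGC, and of these TTTCGCGC and TTTGGCGC can overlap with a match on the other strand. It was found for 12 of the 34 members, 35.3%, and for 2.6% of all 27025 genes with windows of the same length, counting a gene if any of its windows held it (2.26% of all 32851 windows). These 27025 genes were not limited to the expressed genes tested above and were not matched to the members for base content. The 10 members with a window that rose in both genotypes included 3 with the motif (Cdc6, Lig1 and Pola1), and the 4 that fell in both included 1, Mcm5. The CCAAT motif was present in 58.8% of the members and 41.1% of all genes (37.4% of windows), and GGGCGG in 76.5% of the members and 38.2% of all genes (35.7% of windows). TTTGAA or TTCGAA, the CHR element of mitotic genes, was present in 20.6% of the members and 21.7% of all genes (19.2% of windows). A match is only a match of letters, and a missing match says only that these letters are not in the window.

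The 250 bases before the start are shown for a pair of genes that rose in both genotypes, a pair that fell in both and a pair called in opposite ways, in each case 1 with and 1 without the E2F motif, which is in capitals. Each sequence is from RefSeq, GRCm38.p6, and written 5′ to 3′ along the gene. The genes that rose were Pola1 (chrX:93632156-93632405 on the minus strand) and Ccne1 (chr7:38107491-38107740 on the minus strand). The genes that fell were Mcm5 (chr8:75109259-75109508 on the plus strand) and Rpa1 (chr11:75348384-75348633 on the minus strand). Mcm6 (chr1:128359706-128359955 on the minus strand) and Chaf1b (chr16:93883651-93883900 on the plus strand) were called in opposite ways.
Pola1: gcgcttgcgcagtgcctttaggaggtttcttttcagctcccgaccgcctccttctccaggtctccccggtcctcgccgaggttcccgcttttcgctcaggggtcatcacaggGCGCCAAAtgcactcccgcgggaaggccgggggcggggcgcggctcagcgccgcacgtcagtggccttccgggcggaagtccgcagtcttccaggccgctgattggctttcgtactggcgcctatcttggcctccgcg
Ccne1: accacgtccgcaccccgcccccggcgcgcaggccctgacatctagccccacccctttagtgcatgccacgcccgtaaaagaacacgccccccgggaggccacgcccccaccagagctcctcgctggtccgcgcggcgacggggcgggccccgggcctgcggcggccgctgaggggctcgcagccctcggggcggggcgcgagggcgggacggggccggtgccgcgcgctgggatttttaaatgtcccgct
Mcm5: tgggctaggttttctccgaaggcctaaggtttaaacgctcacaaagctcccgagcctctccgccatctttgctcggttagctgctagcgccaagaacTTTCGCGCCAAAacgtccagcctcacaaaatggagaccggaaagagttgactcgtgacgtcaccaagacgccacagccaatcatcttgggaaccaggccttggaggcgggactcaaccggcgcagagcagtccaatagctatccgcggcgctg
Rpa1: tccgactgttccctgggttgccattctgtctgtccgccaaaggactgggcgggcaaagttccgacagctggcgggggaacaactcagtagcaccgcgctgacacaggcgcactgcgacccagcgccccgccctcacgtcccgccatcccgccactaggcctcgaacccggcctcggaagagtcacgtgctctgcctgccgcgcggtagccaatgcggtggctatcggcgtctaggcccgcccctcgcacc
Mcm6: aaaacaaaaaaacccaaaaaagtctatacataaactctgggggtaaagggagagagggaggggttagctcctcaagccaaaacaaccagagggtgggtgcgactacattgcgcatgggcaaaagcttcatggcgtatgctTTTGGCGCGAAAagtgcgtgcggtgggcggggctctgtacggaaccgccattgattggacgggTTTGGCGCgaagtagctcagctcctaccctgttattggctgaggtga
Chaf1b: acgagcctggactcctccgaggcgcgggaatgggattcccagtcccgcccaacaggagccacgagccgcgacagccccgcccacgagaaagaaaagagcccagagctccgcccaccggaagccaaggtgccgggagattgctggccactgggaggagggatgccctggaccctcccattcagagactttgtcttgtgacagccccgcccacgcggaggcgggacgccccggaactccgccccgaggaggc
The promoter of Mcm6 held 3 matches, of which the first pair overlap on opposite strands, that of Mcm5 held 2 that overlap in the same way and that of Pola1 held 1. The windows of Ccne1, Rpa1 and Chaf1b held none.

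The comparison of KO Reserve with WT Reserve asks what differs with the loss of DERARE inside the reserve label. Of the 41 genes, 7 were called higher and 6 lower, where 12% of all genes were called higher and 29.3% lower, and the medians were 0.01 for the members and -0.17 for all genes. The split depended on scaling, with 12 higher and 6 lower under quantile normalization and 17 higher and 4 lower under median-ratio scaling, where the medians were 0.26 and 0.02. The shares of all genes called are again those of the unscaled values and are not given for these scalings. Across these and the other settings, Lig1, Pola1 and Pold1 were called higher and Chaf1b, Mcm6 and Rfc2 lower in every one.

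**Figure D4:**
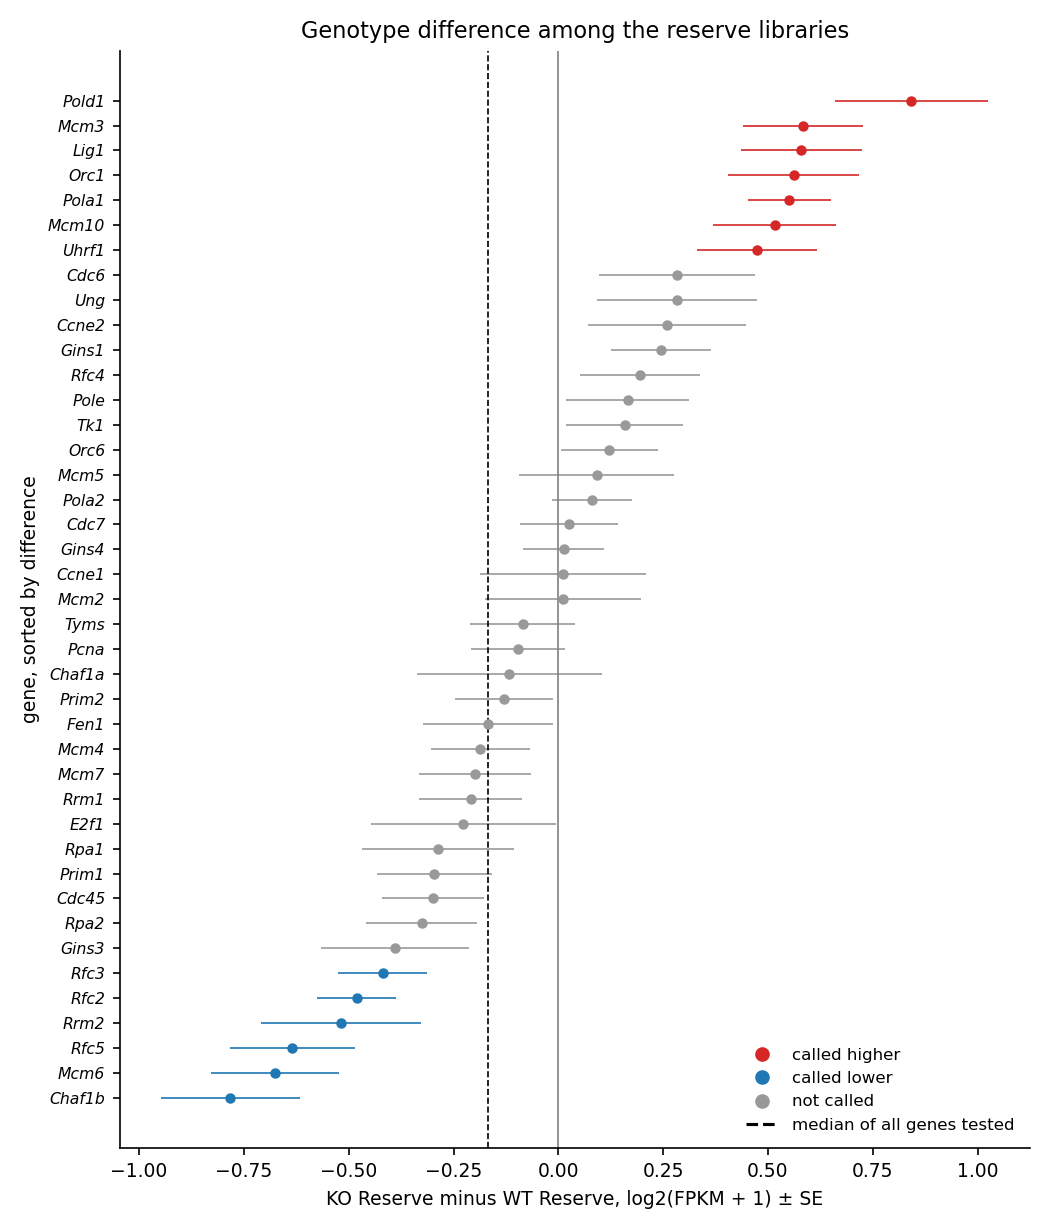
Difference between KO Reserve and WT Reserve for each of 41 replication genes, in order of size, on log2(FPKM + 1) with the standard error of the limma fit. The 7 genes called higher run from Uhrf1 at 0.47 to Pold1 at 0.84, the 6 called lower from Rfc3 at -0.42 to Chaf1b at -0.78, and the dashed line at -0.17 is the median of all genes tested.

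From the library values given above, the mean of Pola1 was 50.6 ± 3.57 FPKM (SD, n = 3) in KO Reserve and 34.2 ± 1.96 FPKM in WT Reserve, a difference of 0.55 ± 0.10 (limma adjusted p = 0.000342). Pold1 had 94.0 ± 18.4 FPKM against 52.8 ± 14.9 FPKM, and all KO Reserve values were above all WT Reserve values (0.84 ± 0.18, limma adjusted p = 0.00154). Lig1 had 164 ± 10.7 FPKM against 109 ± 4.49 FPKM (0.58 ± 0.14, limma adjusted p = 0.00415). Mcm3 had 229, 233 and 204 FPKM in WT, 205, 231 and 191 FPKM in Wnt5a, 212, 266 and 257 FPKM in KO Ctrl and 228, 277 and 244 FPKM in KO Wnt5a. In WT Reserve Mcm3 had 186, 148 and 199 FPKM and in KO Reserve 218, 259 and 327 FPKM. Its reserve groups did not overlap, WT Reserve being low and KO Reserve replicate 3 the highest of all libraries (0.58 ± 0.14, limma adjusted p = 0.00377). The Mcm3 call was lost with only the libraries compared in the fit (limma adjusted p = 0.0502). Orc1 had 7.78, 7.69 and 10.8 FPKM in WT Reserve against the higher KO Reserve values given above (0.56 ± 0.16, limma adjusted p = 0.00857). It too was not called with only the libraries compared in the fit (limma adjusted p = 0.0653). Mcm10, a helicase activator, had 17.1, 18.9 and 16.1 FPKM in WT, 18.6, 21.2 and 14.6 FPKM in Wnt5a, 21.9, 20.7 and 26.7 FPKM in KO Ctrl and 22.1, 26.8 and 25.9 FPKM in KO Wnt5a. In WT Reserve Mcm10 had 15.9, 17.2 and 18.6 FPKM and in KO Reserve 21.6, 24.9 and 29.2 FPKM. Its reserve groups were separate (0.52 ± 0.15, limma adjusted p = 0.00952), but without KO Reserve replicate 3 the difference was 0.41 (adjusted p = 0.056).

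Uhrf1 had 38.3, 41.5 and 32.0 FPKM in WT, 29.0, 35.0 and 28.9 FPKM in Wnt5a, 40.2, 55.7 and 45.6 FPKM in KO Ctrl and 46.7, 47.6 and 48.6 FPKM in KO Wnt5a. In WT Reserve Uhrf1 had 34.2, 26.7 and 37.7 FPKM and in KO Reserve 43.2, 43.5 and 50.4 FPKM. It was higher in KO Reserve than in WT Reserve (0.47 ± 0.14, limma adjusted p = 0.0135), not called without WT Reserve replicate 2 (0.34, adjusted p = 0.0669) or KO Reserve replicate 3 (0.40, adjusted p = 0.0622). Among the genes that were lower, Chaf1b had 56.1 ± 12.5 FPKM in KO Reserve and 96.7 ± 17.82 FPKM in WT Reserve (-0.78 ± 0.17, limma adjusted p = 0.00122). Mcm6 had 121 ± 20.5 FPKM against 196 ± 46.6 FPKM (-0.68 ± 0.15, limma adjusted p = 0.00205), so that Mcm3 and Mcm6, subunits of the same ring, were called in opposite directions. The clamp loader subunits Rfc2 (-0.48 ± 0.09, limma adjusted p = 0.000665), Rfc5 (-0.63 ± 0.15, limma adjusted p = 0.00263) and Rfc3 (-0.42 ± 0.11, limma adjusted p = 0.00463) were all lower in KO Reserve, Rfc3 with -0.17 and an adjusted p of 0.163 under median-ratio scaling, and Rfc4 was not called (0.20 ± 0.14). With only the libraries compared in the fit, Rfc5 (limma adjusted p = 0.0547) and Rfc3 (limma adjusted p = 0.069) were not called. Rrm2 had 229, 166 and 122 FPKM in KO Reserve and 208, 223 and 296 FPKM in WT Reserve, which overlapped (-0.52 ± 0.19, limma adjusted p = 0.0386). Its limma call was lost without WT Reserve replicate 2 (adjusted p = 0.0528), WT Reserve replicate 3 (-0.37, adjusted p = 0.168), KO Reserve replicate 2 (adjusted p = 0.0829) or KO Reserve replicate 3 (-0.29, adjusted p = 0.218).

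The KO Reserve libraries also differed among themselves along the same genes. Replicate 1 was the lowest KO Reserve library for all 7 genes called higher and the highest for all 6 called lower. Replicate 3 was the highest for 6 of the 7 and the lowest for all 6. In WT Reserve, replicate 3 was the highest for 5 of the 7 and 4 of the 6. Marker genes of the stem cell gate and of other cells differed between the groups as well. The stem cell markers Procr (-2.92), Hlf (-2.21), Mecom (-2.04), Slamf1 (-1.40) and Fgd5 (-1.06) were called lower in KO Reserve than in WT Reserve. Cd34 (-2.60), Flt3 (-1.73) and Cd48 (-0.81), which the CD34- Flk2- gate or usual definitions of LT-HSC exclude, were called lower too. Ly6a had means of 151.9 FPKM in WT Reserve and 21.88 FPKM in KO Reserve, and Kit 28.8 and 29.5 FPKM. Of the other markers, 5 of 7 granulocyte genes were called lower and 5 of 9 erythroid genes higher. All 3 monocyte and macrophage genes and all 3 T and NK genes tested were called lower. So were 2 of 6 B lymphoid, 2 of 5 megakaryocyte and 2 of 5 mast cell and basophil genes, where 29.3% of all genes were. The part of these transcripts in the replication gene differences was not tested.

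Whether the difference between genotypes was the same inside and outside the reserve label was tested as an interaction, the KO Reserve minus WT Reserve difference less the KO Ctrl minus WT difference. It was called positive for 1 gene and negative for 11 of the 41, where 8.03% of all genes were called positive and 22.9% negative, with medians of -0.23 for the members and -0.22 for all genes. Quantile normalization gave 3 positive and 9 negative and median-ratio scaling 8 and 4, for which the shares of all genes are not given. The calls of Pola1 (0.49 ± 0.14, limma adjusted p = 0.0143), Rfc2 (-0.69 ± 0.13, limma adjusted p = 0.00096), Mcm6 (-1.12 ± 0.22, limma adjusted p = 0.00101), Chaf1b (-1.07 ± 0.23, limma adjusted p = 0.00244) and Rfc5 (-0.89 ± 0.21, limma adjusted p = 0.00432) were kept in every setting. For Mcm6 the genotype difference was 0.44 outside the reserve label and -0.68 inside it, and for Chaf1b 0.29 and -0.78. For Pola1 the values were 0.06 and 0.55. The other 7 calls, all negative, were lost under median-ratio scaling, among them Rfc3 (-0.57 ± 0.15, limma adjusted p = 0.00865), with -0.24 and an adjusted p of 0.197 under that scaling.

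In KO Ctrl against WT, which asks what differs with the loss of DERARE outside the reserve label, no replication gene was called, where 2.65% of all genes were called in either direction, and the lowest adjusted p was 0.117, for Prim2. Differences were above 0 for 39 of 41 members and for 56.1% of all genes, with a median of 0.22 for the members and 0.04 for all genes. Under median-ratio scaling 35 members were above 0 (median 0.14 against -0.01), a setting for which the share of all genes is not given. At an unadjusted p below 0.05, 11 members were higher and 0 lower, where 10.5% of all genes were higher. All 3 KO Ctrl libraries exceeded all 3 WT libraries for 20 of 41 members and for 15.9% of all genes tested. From the values given above, Prim2 had 38.6 ± 1.34 FPKM in KO Ctrl and 29.9 ± 0.564 FPKM in WT (0.35 ± 0.12, limma adjusted p = 0.117). Mcm6 had 190.4 ± 10.7 FPKM against 140.0 ± 13.2 FPKM (0.44 ± 0.15, limma adjusted p = 0.132) and Mcm4 69.5 ± 1.46 FPKM against 55.3 ± 7.05 FPKM (0.33 ± 0.12, limma adjusted p = 0.144). None of these groups overlapped. Among markers of other cells, Mpo of granulocyte precursors had a mean of 0.098 FPKM in KO Ctrl against 59.96 FPKM in WT, while 5 of 7 granulocyte markers had differences above 0 (median 0.31). The mast cell and basophil markers Mcpt8 (0.188 against 7.47 FPKM) and Cpa3 (0.566 against 4.32 FPKM) were also called lower. The 5 megakaryocyte markers summed to 11080.0 to 18400.0 FPKM in KO Ctrl against 19940.0 to 29400.0 FPKM in WT, and none of the 5 was called. Other lists went up. All 6 B lymphoid markers had differences above 0, and 3 of them were called higher. Of 10 stem cell and gate genes tested, 8 had differences above 0, with 3 called higher and 0 lower. The part of these transcripts in the replication gene differences was not tested. Counts changed with the estimate of the spread: 2 members were called higher when only the 12 libraries without the reserve label were fitted, 4 with library weights and 1 under quantile normalization. The shares of all genes called in these fits are not given here.

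**Figure D5:**
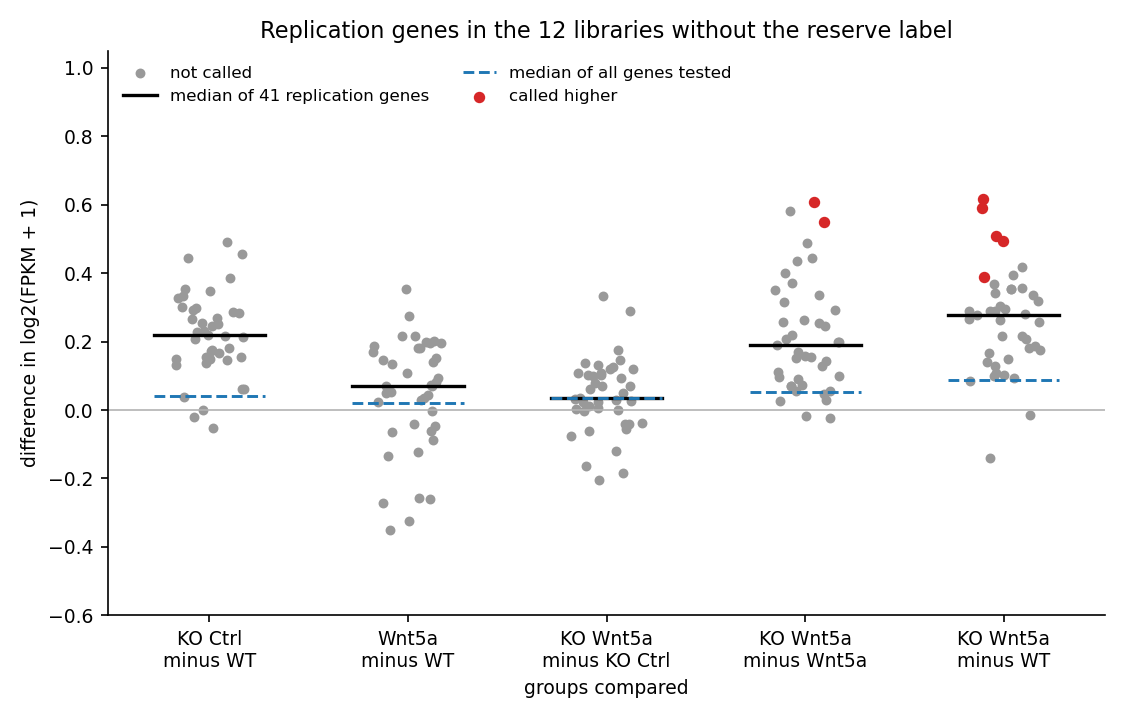
Difference in log2(FPKM + 1) of each of 41 replication genes (points) in the 5 comparisons among the 12 libraries without the reserve label, with the median of the 41 genes (black) and of all genes tested (dashed). The points of KO Ctrl minus WT, KO Wnt5a minus Wnt5a and KO Wnt5a minus WT lie mostly above 0, and the red points are the 2 and 5 genes called.

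Within each genotype, no member passed the test for the Wnt5a label. In Wnt5a against WT no member was called, where 0.0490% of all genes were called. Differences were above 0 for 28 of 41 members and 53.9% of all genes, and the median was 0.07 against 0.02 for all genes. The smallest p belonged to Cdc7, with 33.9 ± 1.73 FPKM in Wnt5a and 27.9 ± 2.67 FPKM in WT (0.27 ± 0.12, limma adjusted p = 0.585), Mcm6 (0.35 ± 0.15, limma adjusted p = 0.594) and Ung (-0.35 ± 0.19, limma adjusted p = 0.691). The groups did not overlap for Cdc7 and Ung and did for Mcm6. At an unadjusted p below 0.05, 2 members were higher and 0 lower, and library weights called 2 higher and 1 lower. The shares of all genes for these counts are not given here, so the counts cannot be set against them. In KO Wnt5a against KO Ctrl no member was called either, where 1.02% of all genes were called, and the median was 0.03 against 0.04 for all genes. The smallest p belonged to Cdc7 (0.29 ± 0.12, limma adjusted p = 0.351), whose groups did not overlap, Tk1 (0.33 ± 0.14, limma adjusted p = 0.382) and Pola2 (0.12 ± 0.10, limma adjusted p = 0.741). Here too 2 members were higher and 0 lower at an unadjusted p below 0.05, again without the share of all genes. The test of whether the Wnt5a difference itself depended on genotype called no member, where 0.0700% of all genes were called. In that test 0 members had an unadjusted p below 0.05, a count for which the share of all genes is not given. Its smallest p belonged to Lig1 (0.32 ± 0.20), Ccne2 (-0.38 ± 0.27) and Uhrf1 (0.28 ± 0.20), with limma adjusted p = 0.897, 0.912 and 0.914.

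Replication genes were called between KO Wnt5a and the wild-type groups. Against WT, 5 of 41 were higher and 0 lower, where 6.80% of all genes were called higher and 5.03% lower, with medians of 0.28 and 0.09, and all 3 KO Wnt5a libraries exceeded all 3 WT libraries for 25 members and for 25.1% of all genes. Cdc7 had 42.5 ± 3.71 FPKM in KO Wnt5a and 27.9 ± 2.67 FPKM in WT (0.59 ± 0.12, limma adjusted p = 0.00383), and it was the only member called under every setting. Mcm6 had 215 ± 17.9 FPKM against 140.0 ± 13.2 FPKM (0.62 ± 0.15, limma adjusted p = 0.0151), with adjusted p of 0.0796 without WT replicate 3 and 0.0602 without KO Wnt5a replicate 1. Tk1 had 119 ± 14.3 FPKM against 83.6 ± 11.6 FPKM (0.51 ± 0.14, limma adjusted p = 0.0269), Mcm10 24.9 ± 2.50 FPKM against 17.4 ± 1.44 FPKM (0.49 ± 0.15, limma adjusted p = 0.0373) and Rrm1 150 ± 10.7 FPKM against 114 ± 6.51 FPKM (0.39 ± 0.12, limma adjusted p = 0.0495). For all 5 genes the groups did not overlap. Of 7 granulocyte markers only Mpo was called lower, at a mean of 0.089 FPKM in KO Wnt5a against 59.96 FPKM in WT, and 3 of the 7 differences were above 0. Megakaryocyte markers summed to 7201 to 10390.0 FPKM in KO Wnt5a against 19940.0 to 29400.0 FPKM in WT, with all 5 called lower. Of 6 B lymphoid markers 2 were called higher and 0 lower, and of 10 stem cell and gate genes tested 4 higher and 1 lower. The part of these transcripts was not tested. The calls of Tk1, Mcm10 and Rrm1 each depended on at least 4 single libraries, WT replicates 1 and 3 and KO Wnt5a replicates 2 and 3 among them, without which adjusted p rose to 0.15 for Tk1, 0.149 for Mcm10 and 0.17 for Rrm1.

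Against Wnt5a, 2 of 41 members were higher in KO Wnt5a and 0 lower, where 1.41% of all genes were called higher and 1.82% lower, and the medians were 0.19 and 0.05. Uhrf1 had 47.6 ± 0.909 FPKM in KO Wnt5a and 31.0 ± 3.51 FPKM in Wnt5a (0.61 ± 0.14, limma adjusted p = 0.0265), and Lig1 87.0 ± 16.0 FPKM against 58.5 ± 4.21 FPKM (0.55 ± 0.14, limma adjusted p = 0.0476). Tk1 followed with 0.43 ± 0.14 (limma adjusted p = 0.109). None of the groups overlapped. Markers of other cells differed between these groups. The mast cell and basophil markers Prss34 (0.008 against 36.05 FPKM in Wnt5a), Mcpt8 (3.31 against 58.4 FPKM), Cpa3 (1.72 against 12.9 FPKM) and Ms4a2 (0.531 against 3.198 FPKM) were called lower in KO Wnt5a, and Gata2, a transcription factor gene of both lineages that stem cells also express, was called higher (122 against 53.2 FPKM). Mpo had 0.089 against 75.95 FPKM, and megakaryocyte markers summed to 7201 to 10390.0 against 12220.0 to 27320.0 FPKM. Their part in the replication gene differences was not tested. Every library but Wnt5a replicate 2 decided the call of Uhrf1, whose adjusted p was 0.0633 to 0.136 without each of them, and every library but KO Wnt5a replicate 1 decided that of Lig1 (0.0598 to 0.222).

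Other genes of the pathway were taken from lists that are not members. Of 47 further replication genes, 27 were called higher and 3 lower in WT Reserve against WT, where 30.8% and 27.9% of all genes were, and 23 and 9 in KO Reserve against KO Ctrl, where 24.8% and 40.4% were. Dut, which removes dUTP, had means of 303 FPKM in WT, 491 FPKM in WT Reserve, 306 FPKM in KO Ctrl and 713 FPKM in KO Reserve (0.69 ± 0.09 and 1.22 ± 0.09). Gmnn, which encodes the licensing inhibitor geminin, rose in both (0.86 ± 0.11 and 1.19 ± 0.11), as did the histone chaperone Nasp (0.88 ± 0.11 and 0.84 ± 0.11). In KO Reserve against WT Reserve 14 were higher and 7 lower, where 12% and 29.3% of all genes were, led by Samhd1, a dNTP hydrolase that fell by 1.09 ± 0.17, and Dut (0.54 ± 0.09). In KO Ctrl against WT only Pold4, a small polymerase delta subunit, was called (-0.48 ± 0.12, limma adjusted p = 0.0474), where 2.65% of all genes were called. In KO Wnt5a against WT 5 were higher and 1 lower, where 6.80% and 5.03% of all genes were, with Ssrp1 of the FACT histone chaperone (0.75 ± 0.13) and Dbf4, the activator of Cdc7 (0.46 ± 0.11), among those that rose.

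Of 16 E2F and pocket protein genes, 5 were called higher and 5 lower in WT Reserve against WT, beside the same 30.8% and 27.9% of all genes, and 3 and 7 in KO Reserve against KO Ctrl, beside 24.8% and 40.4%. Tfdp2, a dimer partner of E2F proteins, rose in both (1.57 ± 0.19 and 1.47 ± 0.19), and E2f7, a repressor, fell in both (-1.12 ± 0.16 and -1.33 ± 0.16). Rb1, the retinoblastoma protein gene, fell by 1.66 ± 0.10 in KO Reserve against KO Ctrl and fell by 1.28 ± 0.10 against WT Reserve. Among 13 cyclin-dependent kinase, D cyclin and inhibitor genes, 2 were called higher and 6 lower in WT Reserve and 3 and 9 in KO Reserve, to be read against these shares. Ccnd2, a D cyclin, went from a mean of 1038 FPKM in WT to 48.5 FPKM in WT Reserve, and from 592 FPKM in KO Ctrl to 22.4 FPKM in KO Reserve. Cdkn1a, which encodes the inhibitor p21, had means of 211 FPKM in WT, 98.6 FPKM in KO Ctrl, 35.5 FPKM in KO Wnt5a, 29.0 FPKM in WT Reserve and 21.9 FPKM in KO Reserve. It was called lower in KO Ctrl against WT (-1.10 ± 0.21, limma adjusted p = 0.0106), a comparison in which no member was called. Of 9 S phase checkpoint genes, 2 were called higher and 2 lower in WT Reserve and 1 and 3 in KO Reserve, against the same shares of all genes, the kinase gene Atr rising in both (0.63 ± 0.13 and 0.85 ± 0.13).

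Of 30 mitotic genes, 13 were called higher and 0 lower in KO Ctrl against WT, where 2.65% of all genes were called in either direction and 0 of the 41 replication genes. In KO Wnt5a against WT 20 mitotic genes were called higher and 0 lower, where 6.80% of all genes were called higher and 5.03% lower and 5 of the 41 replication genes were higher. In KO Wnt5a against Wnt5a 1 mitotic gene was called higher, beside 2 replication genes and 1.41% of all genes. In Wnt5a against WT and KO Wnt5a against KO Ctrl 0 of either list were called, where 0.0490% and 1.02% of all genes were. In Wnt5a against WT all 30 mitotic differences were above 0, as were 28 of the 41 replication genes and 53.9% of all genes. The medians there were 0.35, 0.07 and 0.02. In KO Wnt5a against KO Ctrl 21 of the 30 were above 0, with a median of 0.04 against 0.04 for all genes. The difference between the lists was not tested, and both lists were chosen with earlier results of these data known. Top2a, which encodes topoisomerase II alpha, had means of 99.1 FPKM in WT, 151 FPKM in KO Ctrl and 165 FPKM in KO Wnt5a (0.60 ± 0.09 and 0.72 ± 0.09), and Prc1, a spindle midzone protein gene, 98.3, 162 and 172 FPKM. In the reserve comparisons 13 mitotic genes were higher and 5 lower in the wild type, where 30.8% and 27.9% of all genes were, and 8 and 17 in the knockout, where 24.8% and 40.4% were.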

How the data were processed

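Transcript levels were measured by RNA-seq in 18 libraries from sorted mouse LT-HSC, made with a low-input unstranded kit per the labels' protocols. CASAVA 1.8.2, TopHat2 2.0.10, Cufflinks and mm10 are named in the submitters' processing notes. The deposited FPKM values of the authors, 1 column per library, were used as given. The 16 genes with a missing value, none a member, were dropped. On the log2(FPKM + 1) scale, all groups were fitted with limma 3.58.1 in R 4.3.3, using trended robust moderation, over the 14285 of 44349 genes that reached 1 FPKM in 3 or more libraries. Each of 6 groups of 3 libraries had 1 mean, and 8 pairwise contrasts and 2 interactions were tested with Benjamini-Hochberg adjustment over all genes tested, a call being an adjusted p below 0.05. Fold changes on this scale understate the change of low genes. The fit was tested on simulated data. No counts were used. The fragments behind each library, 20700000 to 41500000, were inferred from the steps of low FPKM values, so that 3 fragments on a transcript of 1 kilobase equal 0.0723 to 0.145 FPKM. Values in every library are given for the 5 called members with the smallest p in each comparison (the 3 members with the smallest p where fewer than 3 were called), for the highest member of each role and for Ccne1, Cdc6 and E2f1. Up to 4 called genes with the smallest p per comparison could be named from each other list. Members and gene lists were chosen with earlier results of these data known. Alternatives were other scalings, pseudocount 0.1, other filters, moderation or weights, fewer libraries, a replicate block and leaving out each library. Python 3.11.15, numpy 2.4.6, pandas 2.3.3 and matplotlib 3.10.9 were used for the remaining steps. Gene positions and overlaps are from GENCODE M21 (GRCm38), matched by identifier for 43938 genes.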

Additional observations from a re-analysis of the deposited data

Results flagged for a closer look

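For 12 replication genes the difference between KO Reserve and WT Reserve departed from the difference between KO Ctrl and WT, by the limma interaction test with adjustment over all genes. The interaction was negative for 11 of them and positive for Pola1 (0.49). The negative values were -1.12 for Mcm6, -1.07 for Chaf1b, -0.89 for Rfc5, -0.88 for Gins3, -0.69 for Rfc2, -0.60 for Rpa2, -0.59 for Prim1, -0.57 for Rfc3, -0.52 for Mcm4, -0.49 for Rrm1 and -0.48 for Prim2. The calls of Pola1, Mcm6, Chaf1b, Rfc5 and Rfc2 were kept in every setting run. Under median-ratio scaling the other 7 were not called, with -0.57 for Gins3, -0.26 for Rpa2, -0.26 for Prim1, -0.24 for Rfc3, -0.19 for Mcm4, -0.16 for Rrm1 and -0.15 for Prim2 and limma adjusted p from 0.0816 to 0.487. Prim2 and Rrm1 kept the call in 8 of 21 settings each. The same test called 22.9% of all genes negative, and the median of all genes was -0.22. Markers of other cell types differed between the reserve and other libraries, and their part was not tested.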

How the results depend on the processing

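Counts below are of members called out of 41, with higher before lower. The share of all genes called in each of these settings is not given, so the counts show only how the member calls moved. No called direction of a named member reversed in any of these settings. For KO Ctrl against WT, quantile normalization gave 1 higher, library weights 4 and the 12 libraries without the reserve label 2, in place of 0. Library weights gave 2 higher and 1 lower for Wnt5a against WT. For KO Wnt5a against Wnt5a, 1 was higher under quantile normalization, median-ratio scaling, pseudocount 0.1, no trend or robust moderation, and only the libraries compared, 0 with no filter and 7 with library weights, and 0 to 1 when single libraries were left out. For KO Wnt5a against WT, median-ratio scaling and no filter gave 2 higher, library weights 15, only the libraries compared and the 12 libraries 13, and leaving out single libraries 1 to 3. For KO Reserve against WT Reserve, quantile normalization gave 12 higher, median-ratio scaling 17, and only the libraries compared 4 higher and 3 lower. For WT Reserve against WT, only the libraries compared gave 3 lower, and leaving out single libraries 4 to 8, the highest without WT Reserve replicate 3. Median-ratio scaling gave 6 lower for KO Reserve against KO Ctrl. For the genotype by reserve interaction, quantile normalization gave 3 higher, median-ratio scaling 8 higher and 4 lower, no filter 6 lower, and leaving out single libraries 1 to 3 higher and 6 to 14 lower, the fewest without WT replicate 3 and the most without WT Reserve replicate 2. The cause of these changes was not tested, except that fewer libraries or more genes enter some fits by construction. The library weights stopped before reaching their tolerance.

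No pairing of the libraries by replicate number was seen: same-numbered libraries of different groups had correlated deviations of -0.092 to 0.1, and 5 of 18 libraries correlated best with their own number. A pairing that is weak or limited to some groups could be missed by this check. With the replicate number as a block, counts were 4 higher for KO Wnt5a against WT, 18 and 12 for KO Reserve against KO Ctrl, 7 and 7 for KO Reserve against WT Reserve, and as in the fit without it elsewhere.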
